A study of Mus musculus with 6 samples.

Results

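The Cdk inhibitors and the Rb family are the genes through which cells leave the division cycle. The 10 genes examined were taken from a fixed list by symbol: the Cip/Kip inhibitors Cdkn1a, Cdkn1b and Cdkn1c, the Ink4 locus and family genes Cdkn2a, Cdkn2b, Cdkn2c and Cdkn2d, and the pocket protein genes Rb1, Rbl1 and Rbl2. Of these, 8 had rows among the 17558 genes of the deposited table and all 8 were tested. Cdkn2a and Cdkn2b were not analysed here.

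Cyclin-dependent kinases drive the cell from G1 into S phase by phosphorylating the pocket proteins, which otherwise bind E2f transcription factors and hold S phase genes silent. Cip/Kip inhibitors bind complexes of cyclins with several Cdks, whereas Ink4 inhibitors bind the kinases Cdk4 and Cdk6. In muscle, myoblasts stop dividing before they fuse into myotubes, and Cdkn1a (p21) and Rb1 are known for their part in that permanent exit.

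RNA was sequenced from C2C12 cells, an immortalized mouse myoblast line that forms myotubes in low serum. All 6 libraries came from cells taken after 48 h of differentiation in a medium that held horse serum with insulin, transferrin and selenium. Each of the 3 groups had 2 libraries: cells stably carrying a scrambled, non-targeting hairpin RNA (shScr, genotype given as WT), a hairpin against the Pkm1 isoform of pyruvate kinase (shPkm1, Pkm1 Knockdown), or one against the Pkm2 isoform (shPkm2, Pkm2 Knockdown). The study asked what Pkm1 and Pkm2 do in myoblast differentiation. Whether a group was 1 clone or a pool of cells, and whether its libraries came from separate cultures, was not given in the sources used here, so the p-values measure the spread between these libraries, which may be technical.

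The target gene was checked first. The Pkm1 isoform stood at 546 and 589 TPM (a level corrected for transcript length and library size) in shScr, 243 and 218 in shPkm1, and 254 and 254 in the shPkm2-labelled libraries. The Pkm2 isoform stood at 1073 and 1517 TPM in shScr, 1278 and 1379 in shPkm1, and 2700 and 2630 in the shPkm2-labelled libraries. Thus the Pkm2 isoform was not lower in the shPkm2-labelled libraries, and the label is used below as a name only. All Pkm transcripts summed gave a log2 fold change against shScr of -0.63 (SE 0.133, adjusted p 0.00107 in edgeR's quasi-likelihood test) in shPkm1. The same test gave 0.20 (SE 0.133, adjusted p 0.198) in the shPkm2-labelled libraries.

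Libraries held 18216896 to 19796036 estimated counts, and the shScr pair was the least alike (chi-square per degree of freedom 32.3, against 6.16 and 6.93 for the other pairs). The 12 myotube markers summed to 50979 and 37861 TPM in shScr, 16127 and 17481 in shPkm1, and 347 and 358 in the shPkm2-labelled libraries, with none at 0 in any group. All 12 fell in both comparisons with shScr, where 31.4% (shPkm1) and 34.2% (shPkm2-labelled libraries) of all tested genes fell and 31.8% and 33.9% rose. The 8 myoblast markers summed to 3520 and 3841 TPM in shScr, 3044 and 3211 in shPkm1, and 1345 and 1242 in the shPkm2-labelled libraries. Des alone held 2248 and 2322 TPM in shScr and 757 and 681 in the shPkm2-labelled libraries. The sum thus mostly follows Des and is no measure of the number of myoblasts. Of the 8 markers, 6 fell and none rose in shPkm1. In the shPkm2-labelled libraries 6 fell and 2 rose, Myf5 (1.74) and Sdc4. For shPkm1 this depended on the scaling: on log2(TPM + 1) 3 were lower and 1 was higher, with Des (-0.12), Cdh15 (-0.24) and Sdc4 (-0.25) no longer called and Myf5 called at 0.60. Of the 2 risen in the shPkm2-labelled libraries, Sdc4 (0.23, adjusted p 0.0401, edgeR) lost its call in 9 of 15 alternatives, among them DESeq2, the replicate block and leaving out any 1 hairpin library. Lists of adipocyte, bone and cartilage, and blood and endothelial markers each summed to at most 53.4 TPM per library. Of their 6 tested genes, 4 rose and 1 fell in shPkm1, and 4 rose in the shPkm2-labelled libraries. Of the listed markers, Ibsp and Sp7 were listed at 0 in both shScr libraries, Plin1, Acan and Ibsp in both shPkm1 libraries, and Adipoq, Plin1, Acan and Ibsp in both libraries labelled shPkm2. In bulk RNA, fewer cells of a type and less RNA per cell cannot be told apart, and the part of the lower myotube RNA in the changes below was not tested.

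Fold changes below are from counts scaled with TMM (a scaling that sets a trimmed mean of the log ratios between libraries to 0), and a gene was called at a Benjamini-Hochberg adjusted p below 0.05 over 12643 genes. TPM gave a different centre: on the log2(TPM + 1) scale the median gene was 0.37 higher in shPkm1 and 0.44 higher in the shPkm2-labelled libraries than in shScr. Of the genes called, 50.3%, 49.8% and 48.4% were higher in shPkm1 against shScr, in the shPkm2-labelled libraries against shScr, and between the hairpin groups. With library totals alone these shares were 65.8%, 69.3% and 61.3%, and on log2(TPM + 1) they were 78.1%, 75.7% and 53.8%. Both comparisons against shScr use the same control libraries, so they are set side by side and not counted as separate support.

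Most genes changed in these data, and the count of members called has to be read against that. In shPkm1 against shScr, 5 of the 8 tested members were called (3 higher and 2 lower), where 63.1% of all tested genes were called (31.8% higher and 31.4% lower). In the shPkm2-labelled libraries against shScr, 7 of 8 were called (4 higher and 3 lower), against 68% of all genes (33.9% higher and 34.2% lower). Between the hairpin groups all 8 were called (4 higher and 4 lower), against 53% of all genes (25.7% higher and 27.3% lower in the shPkm2-labelled libraries). That count was 5 without shPkm1 replicate 1 or shPkm2 replicate 2, and the calls of Rbl2 and Cdkn1b were lost in 9 and 5 of 15 alternatives. Changes of at least 2-fold were called for 2, 4 and 3 members in the same order of comparisons, against 22.1%, 27.9% and 18.6% of all genes. The CPM of the compared groups did not overlap for 5, 8 and 8 members, against 81%, 83.9% and 79.8% of all genes. The shares called in shPkm1 were thus nearly the same for the members as for all genes. Direction and size differed by member, from a log2 fold change of -5.46 for Cdkn1c to 1.98 for Rbl1 in the shPkm2-labelled libraries.

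**Figure D1:**
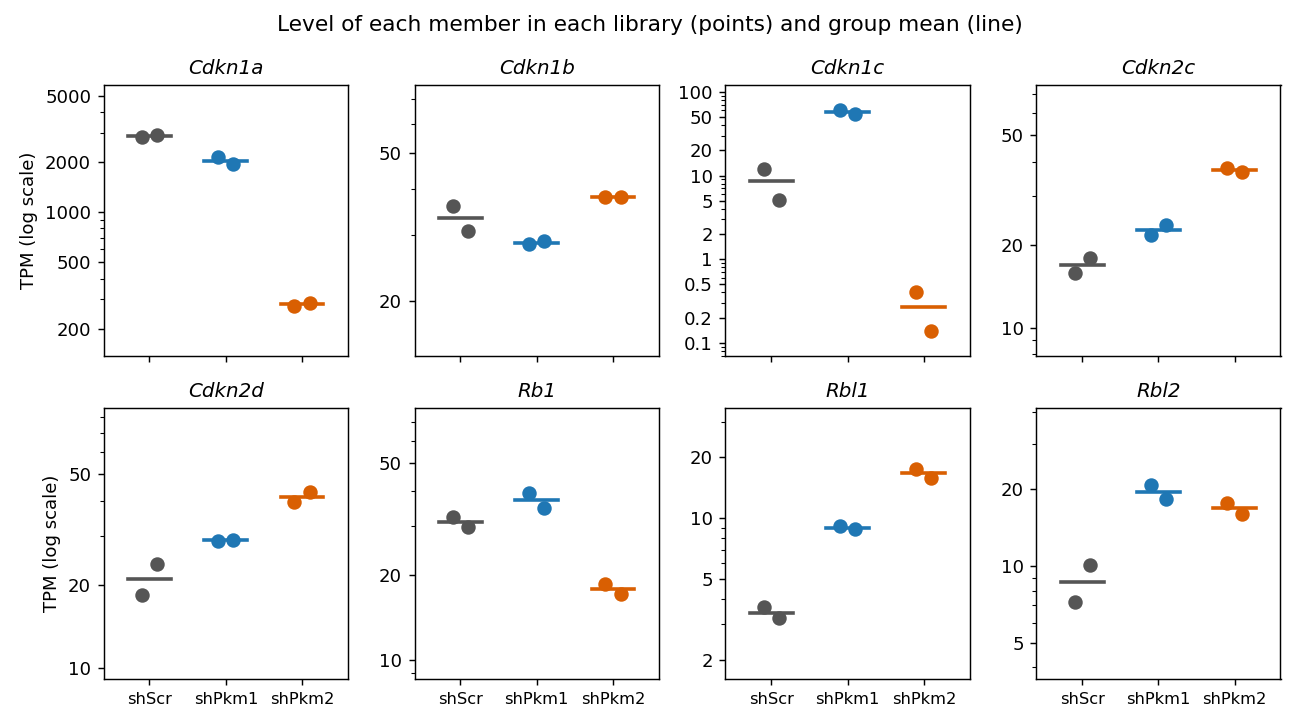
TPM of each of the 8 members on a log axis that differs by panel, with 1 point per library and a line at the group mean of 2 libraries. Cdkn1a falls from 2841 and 2898 TPM in shScr to 275 and 287 in the shPkm2-labelled libraries, while Rbl1 climbs from 3.64 and 3.23 to 17.5 and 15.9.

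Sequences just upstream of the starts of 2 members are shown because these genes had the largest fall and the largest rise in the shPkm2-labelled libraries among the members with a RefSeq promoter window and a row in the table. Both are 250 bases long, taken 5′ to 3′ on the gene's strand from RefSeq on GRCm38.p6. Such windows were at hand for 8 of the 10 members (11 windows). The Cdkn1a window is chr17:29093519-29093768 on the plus strand, upstream of the major transcript NM_007669.5, and its capitals mark a CAGGTG E-box (a 6-base element of the kind bound by MyoD) and GGGCGG GC boxes. It also lies within an exon of AC167363.2, an unclassified gene annotated on the opposite strand that overlaps Cdkn1a, and without strand reads of that pair cannot be told apart. The Rbl1 window is chr2:157204535-157204784 on the minus strand, and its capitals mark an E2F match, TTTCGCGC.
Cdkn1a: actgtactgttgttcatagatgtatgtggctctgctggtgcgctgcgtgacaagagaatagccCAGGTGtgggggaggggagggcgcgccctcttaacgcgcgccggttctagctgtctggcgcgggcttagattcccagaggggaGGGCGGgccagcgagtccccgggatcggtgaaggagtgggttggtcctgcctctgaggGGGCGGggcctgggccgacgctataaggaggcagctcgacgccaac
Rbl1: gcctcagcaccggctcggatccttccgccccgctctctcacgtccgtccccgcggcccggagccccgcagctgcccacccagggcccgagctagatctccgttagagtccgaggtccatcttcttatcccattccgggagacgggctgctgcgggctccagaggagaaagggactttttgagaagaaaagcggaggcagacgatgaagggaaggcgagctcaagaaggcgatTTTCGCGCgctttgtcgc

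Motifs were searched on both strands of 32851 windows of 250 bases. The E2F letters, TTTCGCGC or TTTGGCGC, occurred in 0.654% of all windows and, among the members with a window, in Rbl1 alone, starting 18 bases upstream of the transcript start. E-box letters, CAGCTG or CAGGTG, occurred in 27.7% of windows, among them that of Cdkn1a, starting 187 bases upstream of the start, and that of Rbl1, where they are left in lower case. GC box letters, GGGCGG, occurred in 32.7% of windows, and the copies marked in Cdkn1a began 104 and 46 bases upstream. A match describes letters in the window and is no evidence of binding.

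Cdkn1a was the most abundant member in every library. It encodes p21, which binds and inhibits cyclin-Cdk complexes and the replication factor PCNA. The gene (NCBI gene 12575) occupies positions 29090979 to 29100722 of chromosome 17, plus strand, in mm10/GRCm38. Its level was 2841 and 2898 TPM in shScr, 2143 and 1934 in shPkm1, and 275 and 287 in the shPkm2-labelled libraries. The groups did not overlap, with shScr highest and the shPkm2-labelled libraries lowest. Among all 17558 genes its TPM ranked 56 and 53 in shScr, 73 and 85 in shPkm1, and 508 and 476 in the shPkm2-labelled libraries.

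Cdkn1a fell in shPkm1 by 0.89 on the log2 scale (SE 0.127, adjusted p 4.82e-05, edgeR). In the shPkm2-labelled libraries it fell by 3.81 (SE 0.141, adjusted p 8.40e-11, edgeR), which is 14-fold. The direct contrast of the hairpin groups gave -2.92 (SE 0.135, adjusted p 1.26e-09, edgeR). Every alternative kept these calls, but on TPM the fall in shPkm1 was smaller, at -0.49 on log2(TPM + 1). Nearly all of the signal came from 1 transcript, NM_007669.5, which held 94.7% to 98.6% of Cdkn1a counts per library. Its minor transcript NM_001111099.2 was at 38.6 and 49.2 TPM in shScr, 92.9 and 66.5 in shPkm1, and 10.8 and 15 in the shPkm2-labelled libraries. In a fit over 33433 transcripts that minor form was not called in shPkm1 (log2 fold change 0.50, adjusted p 0.277) and fell by 2.17 in the shPkm2-labelled libraries (adjusted p 0.00785, edgeR), where 17.2% of transcripts were called.

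Cdkn1b encodes p27, the inhibitor known for holding resting cells out of the cycle and for being controlled largely through protein breakdown. The gene (NCBI gene 12576) occupies positions 134920401 to 134925525 of chromosome 6, plus strand. It stood at 36.1 and 30.9 TPM in shScr, 28.4 and 29 in shPkm1, and 38.2 and 38 in the shPkm2-labelled libraries. In TMM-scaled CPM (counts relative to library size) it stood at 65.7 and 49.7 in shScr, 36 and 38.9 in shPkm1, and 46.4 and 48.7 in the shPkm2-labelled libraries. The order of shScr and the shPkm2-labelled libraries thus depended on the scale, while shPkm1 was lowest on both.

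In the test on counts Cdkn1b fell in shPkm1, by 0.62 (SE 0.127, adjusted p 0.000868, edgeR), and still at -0.41 without shScr replicate 1 and -0.81 without shScr replicate 2. That call was lost on TPM, at -0.21 to -0.22 and an adjusted p of 0.134 to 0.135 in limma. For the shPkm2-labelled libraries the change against shScr was -0.28 (95% interval -0.55 to -0.01, adjusted p 0.0632, edgeR), which was not called. This value turned to 0.05 with library totals and to 0.18 or 0.19 on TPM, and it was -0.07 (adjusted p 0.621) without shScr replicate 1 but called at -0.47 (adjusted p 0.000189) without shScr replicate 2. Cdkn1b was 0.34 higher in the shPkm2-labelled libraries than in shPkm1 (SE 0.127, adjusted p 0.0361, edgeR). DESeq2 did not call that difference (adjusted p 0.0631), nor did fits without any 1 of the 4 hairpin libraries (0.091 to 0.214).

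Cdkn1c was the one inhibitor that moved in opposite directions against shScr. It encodes p57, an imprinted Cip/Kip inhibitor known in the differentiation of several tissues, muscle among them. The gene (NCBI gene 12577) occupies positions 143458339 to 143461059 of chromosome 7, minus strand. Its counts were 272 and 117 in shScr, 1147 and 1155 in shPkm1, and 8 and 3 in the shPkm2-labelled libraries. As levels these were 12 and 5.13 TPM, 60.5 and 54.6 TPM, and 0.4 and 0.14 TPM. The shPkm1 libraries lay above every other library, and the shPkm2-labelled libraries lay near the limit of detection.

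Cdkn1c rose in shPkm1 by 2.34 (SE 0.269, adjusted p 7.22e-06, edgeR), about 5.06-fold. In the shPkm2-labelled libraries it fell by 5.46 (SE 0.541, adjusted p 1.20e-06, edgeR), with a 95% interval from -6.63 to -4.30. Only 11 counts stood behind that group, with an exact Poisson interval of 5.49 to 19.7 that covers counting error alone, so the size of the fall is loosely set. The gene passed the filter on low counts through the shScr and shPkm1 libraries. Between the hairpin groups the difference was -7.80 (SE 0.455, adjusted p 1.28e-08, edgeR).

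The size of the Cdkn1c changes depended on which shScr and shPkm2-labelled libraries were kept. The rise in shPkm1 was 3.17 without shScr replicate 1 and 1.79 without shScr replicate 2, and the fall in the shPkm2-labelled libraries was -4.63 and -6.01. Without shPkm2 replicate 1 or 2 that fall was -6.29 or -4.94, and the difference between the hairpin groups was -8.65 or -7.29. On log2(TPM + 1), which compresses low values, the fall against shScr was -2.82 and the difference between the hairpin groups -5.53. All of these were still called. Of the 7 transcript rows of Cdkn1c, those other than NM_009876.4 were listed at 0 in both libraries labelled shPkm2. An antisense gene, Gm44732, overlaps Cdkn1c, and strandedness was not given in the sources used here, so reads of the pair cannot be told apart.

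**Figure D2:**
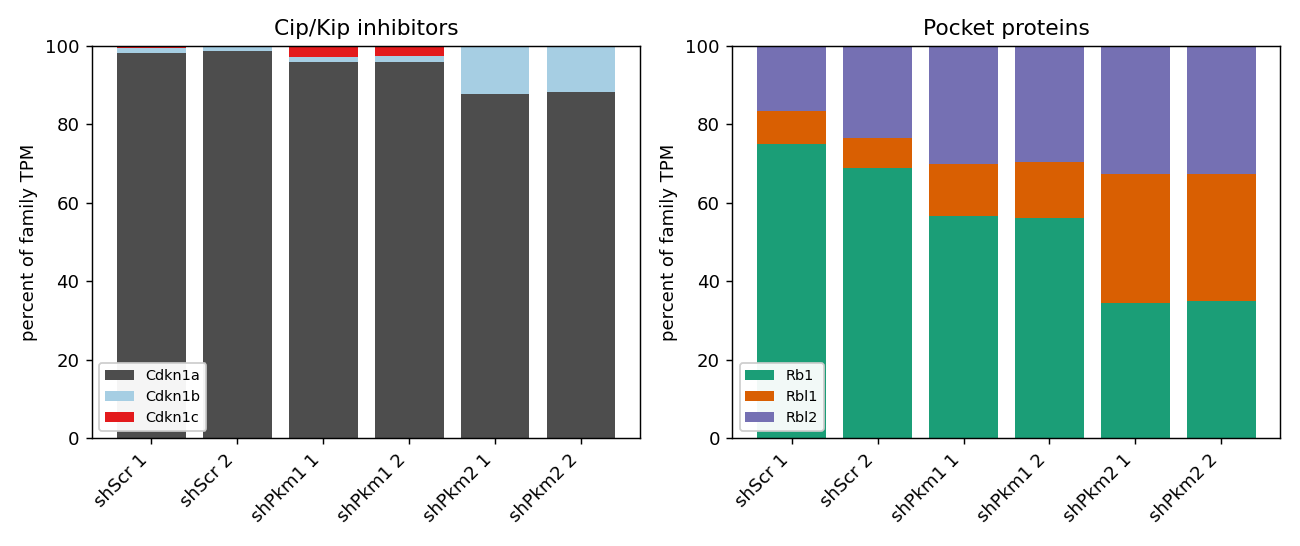
Percent of the summed TPM of the Cip/Kip genes (Cdkn1a, Cdkn1b, Cdkn1c) and of the pocket protein genes (Rb1, Rbl1, Rbl2) held by each member, with 1 stacked bar per library. Cdkn1a holds 98.3% and 98.8% in shScr and 87.7% and 88.3% in the shPkm2-labelled libraries, while Rb1 drops from 74.9% and 69% to 34.6% and 35%.

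The Cip/Kip genes together reached 2889 and 2934 TPM in shScr, 2232 and 2018 in shPkm1, and 313 and 325 in the shPkm2-labelled libraries. Cdkn1a made up 98.3% and 98.8% of that sum in shScr, 96% and 95.9% in shPkm1, and 87.7% and 88.3% in the shPkm2-labelled libraries. The share of Cdkn1b was 1.25% and 1.05% in shScr and 12.2% and 11.7% in the shPkm2-labelled libraries. Its TPM was much alike in those groups, so the larger share came with the lower Cdkn1a level. Cdkn1c made up 2.71% in both shPkm1 libraries and at most 0.415% in any other library.

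The Ink4 genes with rows, Cdkn2c and Cdkn2d, differed from Cdkn1a in direction in the shPkm2-labelled libraries, while in shPkm1 neither was called on counts. Cdkn2c encodes p18 and Cdkn2d encodes p19, inhibitors that bind Cdk4 and Cdk6 and keep them from D-type cyclins. Together they stood at 34 and 41.6 TPM in shScr, 50.2 and 52.5 in shPkm1, and 77.3 and 79.7 in the shPkm2-labelled libraries. As a share of the summed TPM of the 5 inhibitors with rows this was 1.16% and 1.4%, 2.2% and 2.54%, and 19.8% and 19.7%.

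Cdkn2c (NCBI gene 12580) lies on chromosome 4 on the minus strand. Its level was 15.8 and 17.9 TPM in shScr, 21.6 and 23.5 in shPkm1, and 37.9 and 36.6 in the shPkm2-labelled libraries. It rose by 0.82 in the shPkm2-labelled libraries against shScr (SE 0.112, adjusted p 2.41e-05, edgeR) and was 0.73 higher there than in shPkm1 (SE 0.111, adjusted p 9.53e-05, edgeR). In shPkm1 it was not called on counts, at 0.09 (95% interval -0.16 to 0.34, adjusted p 0.521, edgeR). The TPM fits called it there, at 0.40 to 0.42, close to the shift of 0.37 to 0.39 of the median gene on that scale.

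Cdkn2c had rows for 2 transcripts. In the GENCODE models matched to them, the upstream form NM_001301368.1 has 3 exons and starts at 109667189 of chromosome 4, and the downstream form NM_007671.3 has 2 exons and starts at 109665372. RefSeq's starts for Cdkn2c are 109666756 and 109665372, so the models differ in the upstream one. The upstream form was at 11.1 and 13.4 TPM in shScr, 16.7 and 19.1 in shPkm1, and 33.8 and 33.3 in the shPkm2-labelled libraries. The downstream form was at 4.66 and 4.5, 4.96 and 4.36, and 4.08 and 3.3 TPM. It had its lowest values in the shPkm2-labelled libraries, where the upstream form was highest.

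The upstream Cdkn2c form rose by 1.03 in the shPkm2-labelled libraries (SE 0.139, adjusted p 0.0117, edgeR over 33433 transcripts). The call was lost without either shPkm2-labelled library or without shScr replicate 1. Against shPkm1 its difference was 0.83 (adjusted p 0.0355, edgeR), where 7.91% of transcripts were called, and it was lost with only the compared groups, with the replicate block and without any 1 library. The downstream form was not called, at -0.76 (95% interval -1.95 to 0.43, adjusted p 0.354, edgeR) in the shPkm2-labelled libraries. The upstream form held 81.9% and 85.1% of Cdkn2c counts in shScr, 86.5% and 89.3% in shPkm1, and 94% and 95% in the shPkm2-labelled libraries. These shares rest on how reads in shared exons were divided between the forms, and the difference between the forms was not tested.

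**Figure D3:**
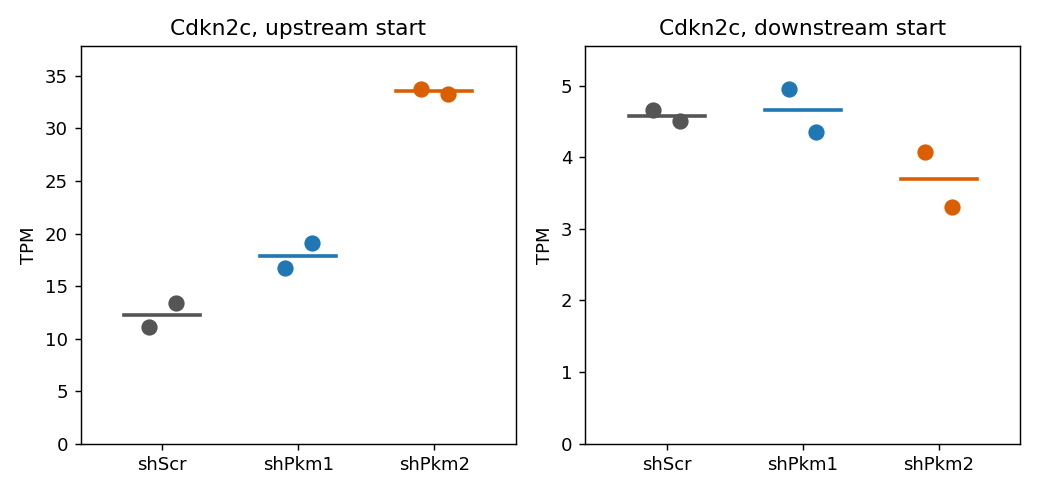
TPM of the 2 Cdkn2c transcripts in each library, on linear axes from 0, with 1 point per library. The upstream form goes from 11.1 and 13.4 TPM in shScr to 33.8 and 33.3 in the shPkm2-labelled libraries, while the downstream form stays between 3.3 and 4.96 in all 6 libraries.

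Cdkn2d (NCBI gene 12581) occupies positions 21288459 to 21291421 of chromosome 9, minus strand. It stood at 18.3 and 23.7 TPM in shScr, 28.6 and 29 in shPkm1, and 39.5 and 43.1 in the shPkm2-labelled libraries. In the shPkm2-labelled libraries it rose by 0.53 (SE 0.123, adjusted p 0.00169, edgeR), and by 0.95 to 0.98 on TPM. For shPkm1 the change was 0.08 (95% interval -0.20 to 0.35, adjusted p 0.617, edgeR), which was not called. It was -0.02 without shScr replicate 1, and on TPM it was called at 0.45 to 0.47. Against shPkm1, Cdkn2d was 0.46 higher in the shPkm2-labelled libraries (SE 0.121, adjusted p 0.00608, edgeR), a call lost without shPkm1 replicate 1 (0.0677) or shPkm2 replicate 2 (0.102).

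The pocket protein genes moved in opposite directions in the shPkm2-labelled libraries, where Rb1 fell and Rbl1 and Rbl2 rose. Rb1 encodes the retinoblastoma protein, which binds the activator E2fs and is known to be needed for lasting cell cycle exit in muscle. Rbl1 encodes p107, found mainly in cycling cells, and Rbl2 encodes p130, found mainly in resting cells. Their summed TPM was 43.2 and 43.1 in shScr, 69.3 and 62 in shPkm1, and 53.7 and 49 in the shPkm2-labelled libraries.

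Rb1 (NCBI gene 19645) occupies positions 73192858 to 73325951 of chromosome 14, minus strand. Its level was 32.3 and 29.7 TPM in shScr, 39.3 and 34.8 in shPkm1, and 18.6 and 17.1 in the shPkm2-labelled libraries. The shPkm2-labelled libraries lay below all others. Rb1 fell there by 1.27 (SE 0.11, adjusted p 3.22e-07, edgeR), or 2.41-fold, and by 0.76 to 0.79 on TPM. Against shPkm1 its difference was -1.13 (SE 0.11, adjusted p 1.77e-06, edgeR).

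In shPkm1 the change of Rb1 was -0.14 (95% interval -0.37 to 0.09, adjusted p 0.256, edgeR), which was not called. Its sign followed the scale, at 0.06 with library totals and 0.25 on TPM, and it was called at -0.25 (adjusted p 0.0329) without shScr replicate 2. Lpar6 lies inside Rb1 on the opposite strand and had 46 and 45 counts in shScr and 124 and 125 in the shPkm2-labelled libraries. It rose by 1.11 where Rb1 fell (adjusted p 0.000405, edgeR). Rcbtb2 also overlaps Rb1 on the opposite strand, with 508 and 571 counts in shScr and 703 and 721 in the shPkm2-labelled libraries, beside 1620 and 1551 and then 838 and 826 counts of Rb1. Rcbtb2 was not called against shScr, at 0.07 (adjusted p 0.583, edgeR) in the shPkm2-labelled libraries. Without strand, reads in these overlaps cannot be told apart.

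Rbl1 (NCBI gene 19650) occupies positions 157145893 to 157204534 of chromosome 2, minus strand. It stood at 3.64 and 3.23 TPM in shScr, 9.14 and 8.87 in shPkm1, and 17.5 and 15.9 in the shPkm2-labelled libraries. The groups did not overlap, and the pairs were close together. Rbl1 rose by 1.14 in shPkm1 (SE 0.126, adjusted p 5.38e-06, edgeR), or 2.2-fold. It rose by 1.98 in the shPkm2-labelled libraries (SE 0.123, adjusted p 1.18e-08, edgeR), or 3.95-fold, and differed by 0.84 between the hairpin groups (SE 0.112, adjusted p 3.10e-05, edgeR). These 3 calls held under every alternative tried. Its main transcript NM_011249.2 gave 1.34, 2.20 and 0.86 in the same order, all called.

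Rbl2 (NCBI gene 19651) occupies positions 91070057 to 91123844 of chromosome 8, plus strand. It was at 7.21 and 10.1 TPM in shScr, 20.8 and 18.3 in shPkm1, and 17.6 and 16 in the shPkm2-labelled libraries. Unlike Rbl1, it was highest in shPkm1. Rbl2 rose by 0.79 in shPkm1 (SE 0.117, adjusted p 6.42e-05, edgeR) and by 0.51 in the shPkm2-labelled libraries (SE 0.117, adjusted p 0.00174, edgeR). On TPM the latter rise was 0.89 to 0.96.

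The difference of Rbl2 between the hairpin groups was -0.28 (SE 0.114, adjusted p 0.0494, edgeR), at the edge of the threshold. It was lost under 9 of 15 alternatives, among them library totals (-0.16, adjusted p 0.332). Aktip overlaps Rbl2 on the opposite strand. It rose by 0.32 in shPkm1 (adjusted p 0.02, edgeR) and fell by 0.45 in the shPkm2-labelled libraries (adjusted p 0.00286, edgeR), and without strand its reads in the overlap cannot be told apart.

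Within the pocket protein sum, Rb1 made up 74.9% and 69% in shScr, 56.7% and 56.1% in shPkm1, and 34.6% and 35% in the shPkm2-labelled libraries. The share of Rbl1 was 8.43% and 7.5%, 13.2% and 14.3%, and 32.7% and 32.4%. Rbl2 made up 16.7% and 23.5%, 30.1% and 29.5%, and 32.8% and 32.6%. In the shPkm2-labelled libraries the 3 genes were thus at nearly equal levels, with a ratio of Rb1 to Rbl1 of 1.06 and 1.08, against 8.88 and 9.2 in shScr and 4.3 and 3.92 in shPkm1. The myotube marker sums given above were ordered across the groups in the same way as this ratio. Falls were common, with 31.4% (shPkm1) and 34.2% (shPkm2-labelled libraries) of all tested genes called lower than in shScr, and a link was not tested.

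**Figure D4:**
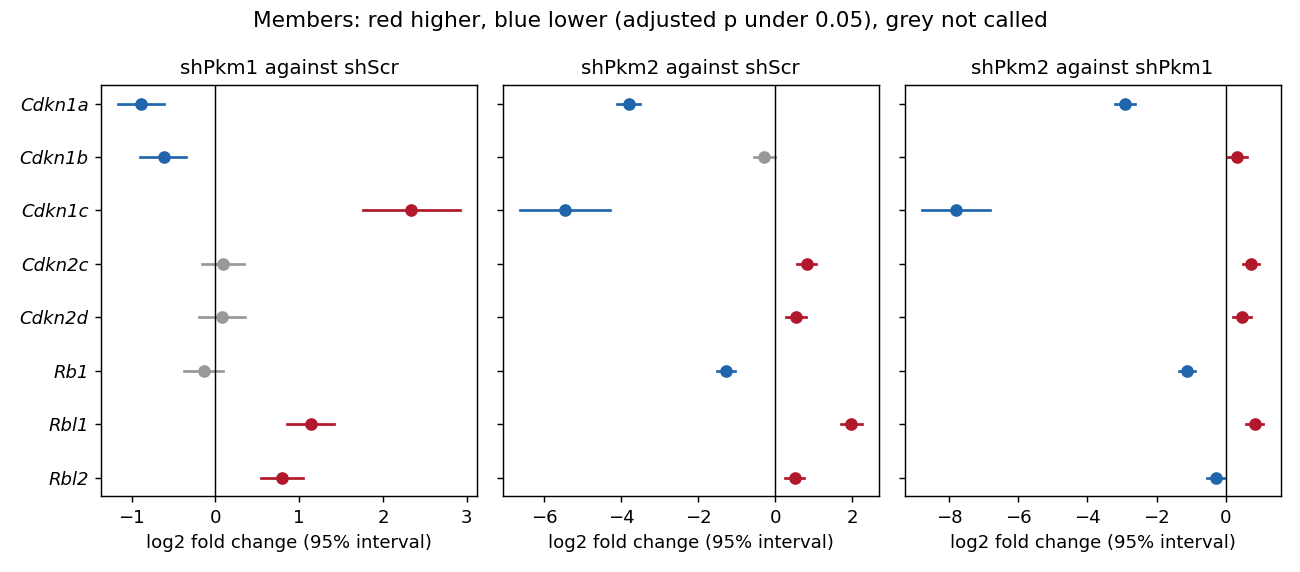
Log2 fold change of the 8 members with 95% intervals in the 3 comparisons, from edgeR on TMM-scaled counts, with an x axis that differs by panel. Cdkn1c lies right of 0 in shPkm1 against shScr (2.34) and far left of it in the shPkm2-labelled libraries against shScr (-5.46), while Rbl1 lies right of 0 in every panel.

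The kinases that the inhibitors act on, and the cyclins, changed unevenly. Of 16 cyclins, Cdks and their activators, 7 rose and 3 fell in shPkm1 (median log2 fold change 0.10), and 10 rose and 4 fell in the shPkm2-labelled libraries (median 1.02). Medians over all tested genes were -0.00 and 0.01, and 31.8% and 33.9% of all genes rose. The list spans G1 to mitosis: Ccna2, Ccnb1 and Ccnb2, cyclins of S phase and mitosis, rose in both comparisons, and the mitotic kinase Cdk1 rose in the shPkm2-labelled libraries; these 4 are named after their values were seen. The call of Ccnb2 in shPkm1 was lost without shScr replicate 1 or shPkm1 replicate 1. On log2(TPM + 1) the list had 11 higher and 3 lower in shPkm1, and 11 higher and 2 lower in the shPkm2-labelled libraries. Ccnd1, the D-type cyclin that answers to growth factors, was at 7 and 8.9 TPM in shScr, 46.5 and 43.5 in shPkm1, and 91.7 and 88.9 in the shPkm2-labelled libraries. It rose by 2.12 and 3.06 against shScr (adjusted p 3.93e-09 and 5.13e-11, edgeR).

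Ccnd3, the D-type cyclin known to stay high in myotubes, went the other way, from 1027 and 1010 TPM in shScr to 517 and 502 in shPkm1 and 244 and 232 in the shPkm2-labelled libraries. Its log2 fold changes were -1.41 and -2.58 (adjusted p 3.55e-07 and 7.85e-10, edgeR). Ccne2, an E-type cyclin that activates Cdk2, rose by 1.65 and 3.05 (adjusted p 4.56e-06 and 3.70e-09). Cdk2 fell by 1.09 and 0.90 (adjusted p 4.34e-06 and 1.43e-05). Cdk6, a kinase bound by Ink4 inhibitors, rose by 0.78 and 1.74 (adjusted p 0.000711 and 3.41e-07, edgeR). Cdk4, also bound by them, rose by 0.58 in the shPkm2-labelled libraries (adjusted p 0.000419, edgeR). In shPkm1 Cdk4 was not called, at -0.22 (adjusted p 0.0981, edgeR) and at 0.17 on log2(TPM + 1). Ccnd2 fell by 1.32 in shPkm1 and by 0.55 in the shPkm2-labelled libraries (adjusted p 3.72e-05 and 0.0132). The smaller of these falls was lost on log2(TPM + 1), at -0.06, and without shScr replicate 2 or shPkm2 replicate 2.

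Among the E2f factors and their Dp partners, 2 rose and 4 fell of 10 in shPkm1, where 31.8% of all genes rose and 31.4% fell. There were 6 higher and 3 lower in the shPkm2-labelled libraries, against 33.9% and 34.2% of all genes. E2f7, an E2f that represses without pocket proteins, rose by 1.03 and 2.68 (adjusted p 0.000162 and 1.01e-08, edgeR). E2f5, a partner of the p107 and p130 proteins, rose by 0.67 and 1.50 (adjusted p 0.0063 and 5.06e-06), the former lost without shPkm1 replicate 1. E2f2, an activator E2f bound by Rb1, fell by 1.23 and 1.86 (adjusted p 3.55e-07 and 3.85e-09). The activators E2f1 and E2f3 instead rose in the shPkm2-labelled libraries, by 0.72 and 0.80 (adjusted p 7.92e-05 and 5.00e-05, edgeR). In shPkm1 these activators were not called on counts, at 0.20 and 0.19, but were called on log2(TPM + 1), at 0.57 and 0.53. E2f4, a partner of the pocket proteins in resting cells, fell by 0.43 and 0.52 (adjusted p 0.00115 and 0.000234), and E2f6, which represses without pocket proteins, fell by 1.00 and 0.48 (adjusted p 4.06e-05 and 0.00657). The falls of E2f4 were not called on log2(TPM + 1), at -0.04 and -0.06, nor was that of E2f6 in the shPkm2-labelled libraries, at -0.01. On that scale the list had 5 higher and 2 lower in shPkm1, and 7 higher and 1 lower in the shPkm2-labelled libraries, so its balance in shPkm1 followed the scaling.

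Of the E2f-regulated S phase genes, 13 of 20 rose in shPkm1 with none lower (median 0.68), and 20 of 20 rose in the shPkm2-labelled libraries (median 1.91). Over all tested genes 31.8% and 33.9% rose, and the medians were -0.00 and 0.01. With log2(TPM + 1) 18 of the 20 were higher in shPkm1 and 20 in the shPkm2-labelled libraries. Cdc6, which loads the replicative helicase, rose by 2.49 in the shPkm2-labelled libraries (adjusted p 1.40e-08, edgeR). Pola1, the catalytic subunit of DNA polymerase alpha, rose by 1.40 in shPkm1 (adjusted p 1.56e-06, edgeR). Of the 16 listed genes with a promoter window, 4 held one of the E2F motifs searched: Mcm5, Mcm6, Orc1 and Pola1. In the other lists these were Cdc25a and Cdk1 of 11 cyclin and Cdk genes with a window, and Tfdp1 of 8 E2f and Dp genes. They were also Dtl of 12 genes in the ligase list and Dnmt1 of 11 in the co-repressor list. None of the 5 genes of the MuvB list or 21 regulators with a window held either motif.

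MuvB subunits join p107 or p130 in the complex that represses cell cycle genes in resting cells, and join B-Myb in cycling ones. Of 7 genes listed, with Foxm1 counted beside the MuvB and B-Myb genes, 4 rose and 2 fell in shPkm1 (median 0.69). In the shPkm2-labelled libraries 4 rose and 1 fell (median 1.47). Over all genes 31.8% rose and 31.4% fell in shPkm1, and 33.9% and 34.2% in the shPkm2-labelled libraries. Mybl2, which encodes B-Myb, rose by 0.84 and 2.20 (adjusted p 0.000162 and 9.25e-09, edgeR). Of the core subunits, Lin9 rose by 0.78 and 1.47 (adjusted p 0.00124 and 2.74e-06, edgeR). Lin54 rose by 0.69 and 1.51 (adjusted p 0.00093 and 4.65e-07, edgeR). Lin37, also a core subunit, fell by 0.45 and 0.69 (adjusted p 0.0155 and 0.000876, edgeR). The former fall was lost with library totals, without shScr replicate 1 and without either shPkm1 library. Rbbp4 fell by 0.42 in shPkm1 (adjusted p 0.00194) and was not called in the shPkm2-labelled libraries, at -0.08 (adjusted p 0.468). On log2(TPM + 1) 4 were higher in shPkm1 and 6 in the shPkm2-labelled libraries, and none of the 7 was called lower in either, with Lin37 at -0.05 and -0.23. Rbbp4 was at -0.07 in shPkm1 on that scale, and in the shPkm2-labelled libraries it was called higher there (0.34, adjusted p 0.00852, limma) and with library totals (0.25, adjusted p 0.0412, edgeR).

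Ubiquitin ligases that mark p21 and p27 for breakdown were covered by a list of 12 genes. That list also counts Pcna and Ubxn1, which are not ligase genes, and Ubxn1 fell by 0.42 and 0.65. Of the 12, 6 rose and 4 fell in shPkm1, and 6 rose and 5 fell in the shPkm2-labelled libraries. All tested genes also went both ways, with 31.8% higher and 31.4% lower in shPkm1 and 33.9% and 34.2% in the shPkm2-labelled libraries. Dtl, the substrate receptor that targets p21 on PCNA, rose by 1.38 and 2.30 (adjusted p 4.80e-06 and 1.35e-08, edgeR). Its partner Pcna rose by 0.81 and 2.10 (adjusted p 1.73e-05 and 1.33e-09), whereas the Ddb1 and Cul4a genes of the same ligase fell by 0.47 and 0.79, and by 0.71 and 0.57. Cul4b, the paralog of Cul4a, rose by 0.48 and 1.32 (adjusted p 0.000992 and 7.88e-08, edgeR). Rnf123, a ligase subunit for p27, fell by 0.50 and 0.65 (adjusted p 0.00064 and 5.76e-05). Skp2, the p27 receptor named here after its values were seen, rose by 0.37 and 1.53 (adjusted p 0.0263 and 2.04e-07), the former lost with DESeq2 and without shPkm1 replicate 1. On log2(TPM + 1) the list had 7 higher and 1 lower in each comparison. The falls of Rnf123 were not called there (-0.10 and -0.19), nor were those of Ddb1 in shPkm1 (-0.08) and Cul4a in the shPkm2-labelled libraries (-0.11).

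Of 31 tested regulators of transcription of the inhibitor genes, 14 rose and 7 fell in shPkm1 (median 0.19), and 14 rose and 10 fell in the shPkm2-labelled libraries (median 0.16). Calls in both directions are what all genes showed (31.8% higher and 31.4% lower in shPkm1, 33.9% and 34.2% in the shPkm2-labelled libraries). On log2(TPM + 1) these counts were 20 higher and 5 lower in shPkm1, and 18 higher and 6 lower in the shPkm2-labelled libraries. Myod1 and Myog, muscle transcription factors, were lower in both comparisons. Myod1 had log2 fold changes of -0.90 and -2.22, and Myog of -0.94 and -5.35, in shPkm1 and the shPkm2-labelled libraries (adjusted p 3.19e-05 or less, edgeR). Myod1 was at 294 and 306 TPM in shScr and 84.3 and 91.7 in the shPkm2-labelled libraries. Id2, which keeps MyoD's partners from binding DNA, rose by 1.91 and 2.58 (adjusted p 5.39e-07 and 1.11e-08, edgeR), and Id3 rose by 2.38 in the shPkm2-labelled libraries. Mef2c, a muscle transcription factor, had 367 and 97 counts in shScr, 57 and 58 in shPkm1, and 5 and 4 in the shPkm2-labelled libraries. The shScr pair lay far apart, and the gene passed the filter on low counts through the other groups, so the size of its fall in the shPkm2-labelled libraries is loosely set. It was called lower in both comparisons (adjusted p 0.00112 and 6.67e-06, edgeR), at -0.95 and -1.83 on log2(TPM + 1).

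The list of 16 pocket protein co-repressors also counts the phosphatase genes Ppp1ca, Ppp1cb and Ppp1cc. Ppp1cb (1.21 and 0.78) and Ppp1cc (0.25 and 0.26) were among the risen genes, the latter near the threshold (adjusted p 0.0483 and 0.0424, edgeR). Of the 16, 8 rose and 3 fell in shPkm1 (median 0.18), where 31.8% of all genes rose and 31.4% fell. In the shPkm2-labelled libraries 14 rose and 1 fell (median 0.78), where 33.9% of all genes rose and 34.2% fell. On log2(TPM + 1) the list had 12 higher and 1 lower in shPkm1, and 15 higher and 1 lower in the shPkm2-labelled libraries. The count for shPkm1 dropped from 11 to 7 without either shPkm1 library. Dnmt1, the maintenance DNA methyltransferase, rose by 1.63 in the shPkm2-labelled libraries (adjusted p 2.53e-08, edgeR), and the scaffold Sin3a rose by 1.23. Its paralog Sin3b, known for repression with p130 in resting cells, fell by 0.82 and 0.89 (adjusted p 1.24e-05 and 4.31e-06, edgeR). Smarca2, an ATPase of SWI/SNF, rose by 2.15 in shPkm1 and 0.86 in the shPkm2-labelled libraries, while Smarca4, the other ATPase, fell by 0.45 in shPkm1 (adjusted p 0.0038, edgeR). That fall was -0.06 and not called on log2(TPM + 1), and was lost with library totals and without shPkm1 replicate 1. Smarca4 rose by 0.32 in the shPkm2-labelled libraries (adjusted p 0.0233, edgeR), a call lost without shScr replicate 1 or shPkm2 replicate 1.

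**Figure D5:**
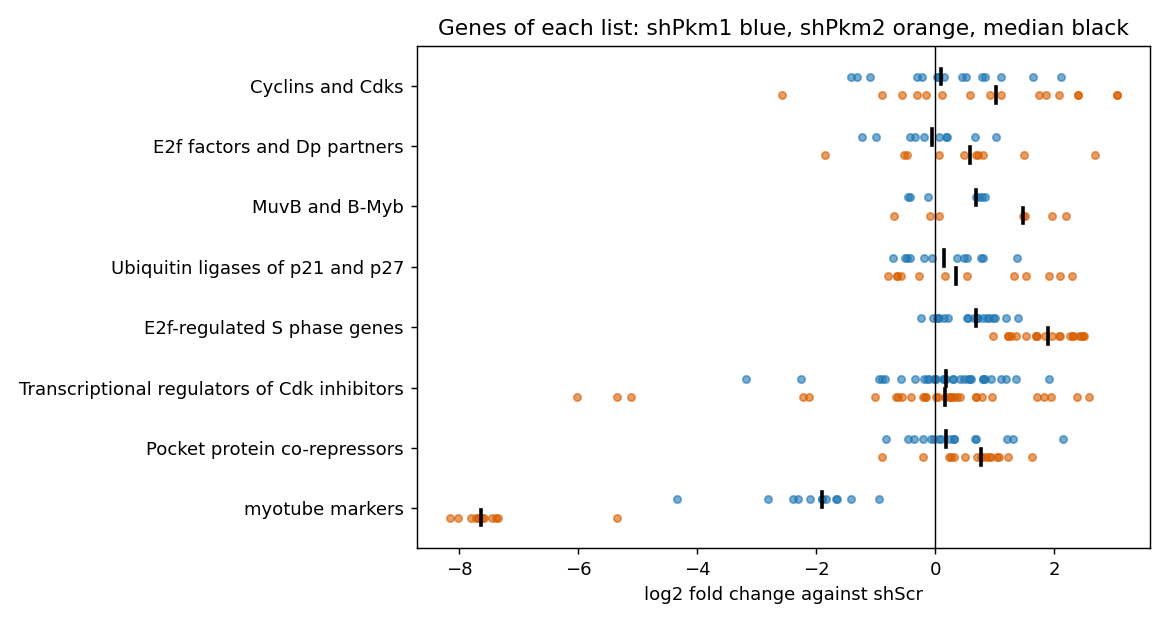
Log2 fold change against shScr of each tested gene in the 7 pathway lists and the myotube markers, in shPkm1 and in the shPkm2-labelled libraries, from edgeR on TMM-scaled counts, with a black bar at each median. All 20 S phase genes lie right of 0 in the shPkm2-labelled libraries, whereas the regulators of inhibitor genes lie on both sides.

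Genes whose levels ran most like the members over the 6 libraries were ranked by Pearson's r of log2 CPM, as a description in which the 3 groups shape every value. For Cdkn1a the highest of 10744 genes were Srl (0.9998), Slc6a9 (0.9997) and R3hdml (0.9996), and 7.16% of the ranked genes had r above 0.95. For Rb1 they were Endod1 (0.9975), Mef2a (0.9971) and Bcl7a (0.9970), with 4.86% above 0.95. Cdkn1c had fewer such genes, 2.15%, led by Plekhg5 (0.9960), Atp2a3 (0.9953) and Scamp1 (0.9952).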

How the data were processed

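RNA of 6 C2C12 libraries was compared in 3 groups of 2, taken with their replicate numbers from the sample titles. The deposited table gives, per the file headers, estimated counts and TPM for 57920 RefSeq transcripts. Of the deposited count values, 48% to 50.7% per library are exactly whole, zeros included, and the others have decimals. The authors' TPM values, corrected for transcript length, sum to about 1000000 per library. The submitters' processing notes name HISAT, StringTie, Bowtie, RSEM, DESeq2 and the build mm10, with no roles, and read length and strandedness were not given in the sources used here. A further 6 columns of FPKM and 9 of group means were not used here.

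Estimated counts were summed per NCBI gene and rounded. Symbols matched 17445 of 17558 genes, and the other 113 held at most 0.148% of a library's counts. Genes were filtered with filterByExpr (minimum count 10, minimum total 15), scaled with TMM and tested with edgeR 4.0.16 (R 4.3.3) in 1 quasi-likelihood fit of all 6 libraries, two-sided, with Benjamini-Hochberg adjustment over 12643 genes and a threshold of 0.05. Transcripts of members were tested in a second such fit. The tests were first checked on simulated counts. Depth was 18216896 to 19796036 counts per library, and Poisson intervals cover counting error only. The Pkm isoforms were matched by RefSeq accession.

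Alternatives were DESeq2 size factors, library totals, no filter beyond 1 count, DESeq2 1.42.0, only genes with a mean of 50 counts or more, only the compared groups, a replicate block, leaving out each library, and limma 3.58.1 on log2(TPM + 1) and log2(TPM + 0.1). The members, pathway lists and marker lists were chosen with earlier results of these data known. Genes named were all members, up to 2 risen and 2 fallen genes per list and comparison with shScr with the largest change among those called at a mean of at least 50 counts, Pkm, Myod1 and Myog, and the 3 genes with the highest r to Cdkn1a, Cdkn1c and Rb1 (not all are printed). Named outside that rule, after their values were seen, were Ccna2, Ccnb1, Ccnb2, Cdk1, Cdk4, Cdk6, E2f1, E2f3, Lin54, Skp2, Cul4b, Ppp1ca, Ppp1cb, Ppp1cc, Des and Cdh15. Others outside it were Mcm5, Mcm6, Orc1, Cdc25a and Tfdp1 by their promoter letters, genes that overlap a member, and markers listed at 0. Promoter windows came from RefSeq on GRCm38.p6, and gene positions and overlaps from the GRCm38 annotation.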

Additional observations from a re-analysis of the deposited data

How the results depend on the processing

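No member reversed a called direction under any alternative, and for 16 of the 24 pairs of a member and a comparison the call was the same in all 15 alternatives. The number of members called between the hairpin groups ran from 5 to 8 when 1 library was left out, with 5 without shPkm1 replicate 1 or without shPkm2 replicate 2; for shPkm1 against shScr it ran from 5 to 6 and for the shPkm2-labelled libraries against shScr from 7 to 8. Leaving out 1 library leaves its group with 1 sample, assumed to vary like the others. Numbers of genes called stayed within 1.5 times in all 45 alternatives. Deviations of same-numbered libraries correlated at -0.0229, 0.0415 and 0.106 over 10953 genes. No strong pairing by replicate number was thus seen. With 2 libraries per group, this check cannot exclude that same-numbered libraries were handled together. With the replicate block 5, 7 and 7 members and 7922, 8566 and 6682 genes were called, and Rbl2 between the hairpin groups was lost (adjusted p 0.0524). Depth limits Cdkn1c in the shPkm2-labelled libraries, which rests on 11 counts, and the minor transcripts. Where calls of Cdkn1b, Cdkn2c, Cdkn2d and Rb1 against shScr changed with the scaling or with 1 library, the cause was not tested.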
